A study of Rattus norvegicus with 4 samples.

Results

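Collagen genes and the genes that modify, fold and cross-link collagen were examined in the brains of rats after an intracerebral hemorrhage, that is, bleeding within brain tissue. Members were the 41 genes of the table whose symbol begins with Col, a number, the letter a and a number, plus 10 added genes: the prolyl and lysyl hydroxylases P4ha1, P4ha2, Plod1, Plod2 and Plod3, the lysyl oxidases Lox, Loxl1 and Loxl2, the chaperone Serpinh1 and the collagen-binding protein gene Sparc. They made up 51 of 17853 genes. The match on symbols included Col4a3bp, the ceramide transfer protein, which is not a collagen. It is left out of all counts below, so 40 collagen chains and 10 added genes remained.

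The 4 groups were ipsilateral tissue of 21 month old rats, contralateral tissue of 21 month old rats, ipsilateral tissue of 13 month old rats and contralateral tissue of 13 month old rats. Every group came from rats with the hemorrhage, so the contralateral side is the opposite side of an injured brain and not tissue of uninjured rats. The ipsilateral libraries carry the code L and the contralateral ones R at both ages, so bleeding and hemisphere cannot be told apart. Each group was 1 library of polyadenylated RNA, and RNA of 9 brains was pooled; whether each library drew on 9 brains is not stated. The strain, the sex, the way the hemorrhage was made and the time since it are absent from the labels. With 1 library per group no value has an error, and a pool shows no spread between rats.

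Collagens are built from chains wound into a triple helix, either of the same kind or of different kinds of chain. Fibrillar collagens form the banded fibrils of scars, vessel walls and meninges. Type IV collagen forms the network of basement membranes, which in the brain lie around vessels and under the pia. Prolyl and lysyl hydroxylases modify the chains in the endoplasmic reticulum, Serpinh1 (also called HSP47) holds the folded helix there, and lysyl oxidases cross-link the molecules outside the cell. Healthy brain tissue holds little fibrillar collagen outside vessels and meninges.

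The values are RPKM, reads scaled to gene length and to the reads of the library. This scaling is meant to let levels of different genes be set side by side. How reads were counted and which gene lengths were used is not stated, and some genes that every cell uses are listed low. Levels and sums of different genes are therefore given as listed. A ratio below is the log2 ratio of RPKM + 1 between 2 libraries, so that 1 stands for a doubling and ratios of low genes are understated. Ratios and tests cover the 12160 genes whose mean over all 4 libraries reached 1 RPKM. Of the 40 collagen chains 19 reached that mean, as did 9 of the 10 added genes. Because the mean includes the ipsilateral libraries, a gene low on the contralateral side could pass through its ipsilateral level. This applied to Loxl2, which was under 1 RPKM on both contralateral sides.

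Collagen chains were listed at low levels, 21 of the 40 at a mean under 1 RPKM. Col11a2, a fibrillar type XI chain, had the highest mean of the chains, with 8.57 and 13.62 RPKM on the ipsilateral and contralateral side at 21 months and 6.38 and 11.46 RPKM at 13 months. The type VI chain Col6a1 was next, between 6.61 and 8.48 RPKM in the 4 libraries, and the type IX chain Col9a3 and the fibril-associated chain Col16a1 followed, between 4.53 and 6.90 RPKM. Over the 40 chains RPKM summed to 80.9 on the ipsilateral and 81.1 on the contralateral side at 21 months, and to 93.3 and 71.8 at 13 months. The summed level of collagen chains was therefore higher ipsilaterally at 13 months and nearly equal between the sides at 21 months.

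Among the added genes Sparc, which encodes the secreted protein osteonectin, stood far above the others, between 273 and 465 RPKM. The hydroxylase gene P4ha1 ranged from 31.19 to 48.59 RPKM and the chaperone gene Serpinh1 from 17.52 to 36.86 RPKM. Plod1, Plod3 and P4ha2 lay between 3.94 and 9.73 RPKM, and Plod2, Loxl1 and Loxl2 between 0.52 and 4.49 RPKM. Levels of the 28 members that reached this mean are shown in the plot of RPKM by library.

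**Figure D1:**
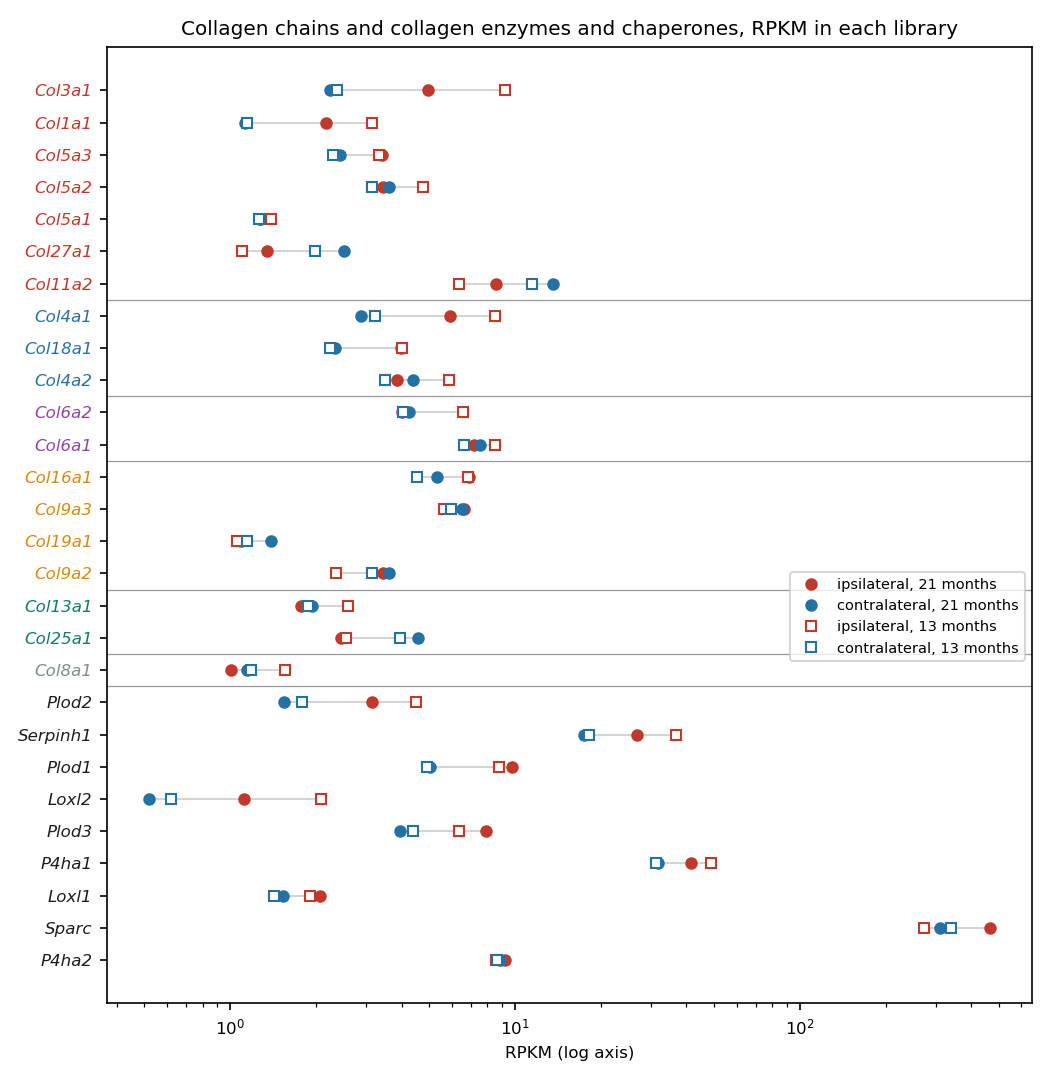
RPKM on a log axis for 19 collagen chains and 9 enzymes and chaperones whose mean reached 1 RPKM, 1 point per library; red points are ipsilateral and blue points contralateral, filled circles 21 months and open squares 13 months. Col3a1 (4.96 and 9.22 RPKM on the ipsilateral sides, 2.25 and 2.37 RPKM on the contralateral sides, 21 months before 13 months) separates by side, whereas P4ha2 lies between 8.58 and 9.24 RPKM in all 4 libraries.

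The members under a mean of 1 RPKM were 21 chains and Lox. Col11a1, Col4a4, Col4a5 and Col12a1 each reached between 1.06 and 1.13 RPKM in 1 library. Col12a1, a fibril-associated chain, had 0.89 and 0.78 RPKM at 21 months and 1.11 and 0.55 RPKM at 13 months, ipsilateral before contralateral in each pair. Lox, the founding lysyl oxidase, had 0.77 and 0.63 RPKM at 21 months and 1.17 and 0.47 RPKM at 13 months in the same order. Both were highest in the ipsilateral library at 13 months. The other chains of this group stayed under 1 RPKM in every library, with the type VI chains Col6a4, Col6a5 and Col6a6 at most at 0.09 RPKM. Depth is unknown, so it cannot be told how many reads lie behind such values.

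Col1a2, which joins Col1a1 in type I collagen, was listed at 0 RPKM in both ipsilateral libraries and at 0.01 RPKM in both contralateral libraries. Its partner Col1a1 was listed at 1.13 to 3.14 RPKM. Gapdh, a glycolysis gene that every cell uses, was listed at only 0.71 to 1.25 RPKM in the same table, and Pgk1, another glycolysis gene, at 157 to 173 RPKM. Genes that cells use throughout can thus be listed low in this table, and no side difference is drawn for Col1a2. The reason for its near-zero value was not tested. No gene was listed under the symbols Col4a3, Col15a1, Col6a3, Col21a1 or Col10a1, so these chains were not analysed here.

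The sides were compared at each age to ask which collagen genes differ around the bleeding. The highest ratios were those of Col3a1, the chain of type III collagen, and Col4a1, the main chain of the basement membrane network. Col3a1 (ENSRNOG00000003357, chromosome 9) had 4.96 RPKM ipsilaterally and 2.25 RPKM contralaterally at 21 months, a ratio of 0.87. At 13 months it had 9.22 and 2.37 RPKM, a ratio of 1.60. Col4a1 (ENSRNOG00000016281, chromosome 16) had 5.92 and 2.87 RPKM at 21 months, a ratio of 0.84, and 8.53 and 3.22 RPKM at 13 months, a ratio of 1.18. For both genes each ipsilateral library was above each contralateral one, and the ipsilateral library of 13 months was the highest. In bulk tissue, more cells of a type and more RNA per cell cannot be told apart.

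Counts past a threshold depend on the RPKM added before taking logs. With 1 RPKM added, at 13 months 2 of 19 chains had a ratio of at least 1, Col3a1 and Col4a1, against 7.19% of all 12160 genes. At 21 months 0 of 19 did, against 5.61% of all genes. None of the 9 added genes reached a ratio of 1 at either age, and none of the 28 members had a ratio of -1 or less, against 0.288% of all genes at 21 months and 0.0658% at 13 months. With 0.1 RPKM added in place of 1, Col3a1 and Col4a1 passed 1 at 21 months too, at 1.11 and 1.02. At 13 months Col1a1, Plod2, Loxl2 and Serpinh1 then passed 1 as well. With nothing added, the fold at 21 months was 2.20 for Col3a1, 2.06 for Col4a1, 2.15 for Loxl2, 2.03 for Plod2 and 2.02 for Plod3. At 13 months it was 3.89 for Col3a1, 3.35 for Loxl2, 2.73 for Col1a1, 2.65 for Col4a1, 2.51 for Plod2 and 2.03 for Serpinh1.

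With a threshold of 0.5, 4 of 19 chains were higher ipsilaterally at 21 months, against 16.3% of all genes, and 3 were lower, against 2.94%. At 13 months 6 chains were higher, against 15.2%, and 2 were lower, against 4.09%. The median ratio of the 19 chains was -0.05 at 21 months and 0.33 at 13 months, beside 0.09 and 0.01 over all genes. Of the 9 added genes 5 were higher by at least 0.5 at each age, with median ratios of 0.58 at 21 months and 0.62 at 13 months. Loxl2, which passed the filter only through its ipsilateral values, is among the 5 at 13 months.

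Over both ages limma, a linear model with age as an additive term, compared 2 ipsilateral with 2 contralateral libraries at a Benjamini-Hochberg threshold of 0.05. Of 19 chains 4 rose and 3 fell, beside 13.3% of all genes that rose and 0.814% that fell. With libraries scaled by median ratios 12.7% of all genes rose and 2.04% fell, and without the age term 0.222% fell. Of the 9 added genes 5 rose, and the lowest fitted change was that of P4ha2 (0.03). Loxl2 is among these 5 although it passed the filter only through its ipsilateral values. Only 1 residual degree of freedom is left, the difference of the side ratio between the ages, and the SEs below rest almost wholly on a spread shared by all genes. When the genes of low values were kept in the fit, all 12 of these calls were lost, with adjusted p-values between 0.11 and 0.21.

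**Figure D2:**
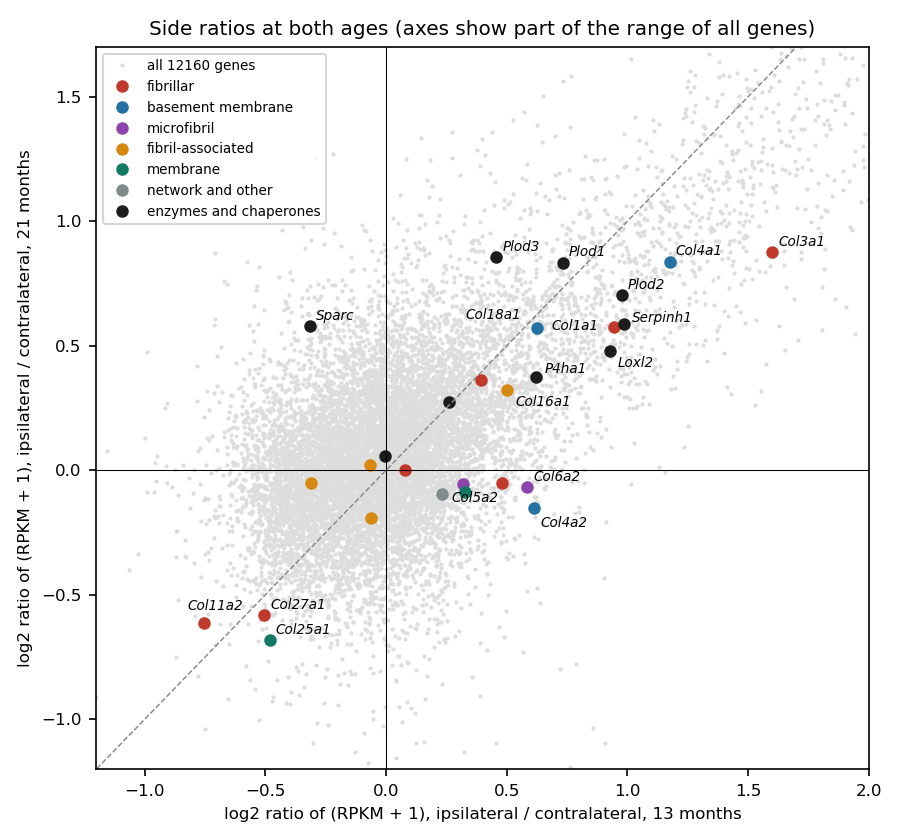
Log2 ratio of RPKM + 1 between the ipsilateral and the contralateral side at 13 months (x axis) and 21 months (y axis); grey points are all 12160 genes, coloured points 28 collagen members by class, and the dashed line marks equal ratios. Col3a1 (1.60 and 0.87) and Col4a1 (1.18 and 0.84) lie far to the right below the line, Col11a2 (-0.76 and -0.61) lies at the lower left, and Sparc (-0.31 and 0.58) lies at the upper left.

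Among the 7 fibrillar chains with a mean of at least 1 RPKM, those of types I and III rose and 2 others fell. Col3a1 rose by 1.24 ± 0.19 (log2, SE, with 2 libraries on each side; adjusted p = 3.4e-05 in limma). Col1a1, the main chain of type I collagen, had 2.17 and 1.13 RPKM at 21 months and 3.14 and 1.15 RPKM at 13 months, ipsilateral before contralateral. Its contralateral values were almost equal at both ages, and it rose by 0.76 ± 0.17 (adjusted p = 0.0032 in limma). The type V chains, which regulate the width of fibrils, did not pass the test. Col5a3 had ratios of 0.36 and 0.39, Col5a2 of -0.05 and 0.48, and Col5a1 of 0.00 and 0.08, 21 months before 13 months.

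Col11a2 and Col27a1 were the fibrillar chains that fell. The values of Col11a2 (ENSRNOG00000000463, chromosome 20), given above, did not overlap between the sides, and its fitted log2 change was -0.68 ± 0.17 (adjusted p = 0.0064 in limma). Col27a1, a fibrillar chain known from cartilage, had 1.35 and 2.52 RPKM at 21 months and 1.10 and 1.98 RPKM at 13 months. It was lower on the ipsilateral side at both ages, with a fitted change of -0.54 ± 0.17 (adjusted p = 0.033 in limma). Without the age term the adjusted p of Col11a2 was 0.070 and that of Col27a1 0.0745. Choroid plexus markers were also lower ipsilaterally, with median ratios of -0.68 at 21 months and -0.48 at 13 months, and their part in these values was not tested. Fibrillar chains thus held both the highest and the lowest fitted changes of the 19 chains, and their median ratio was 0.00 at 21 months and 0.39 at 13 months.

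Over the 3 basement membrane chains with a mean of at least 1 RPKM the median ratio was 0.57 at 21 months and 0.62 at 13 months. Over all 6 rows, low ones included, the median at 21 months was 0.00387. Col4a1 rose by 1.01 ± 0.17 (adjusted p = 0.00016 in limma). Col18a1, whose C-terminal fragment is the vessel growth inhibitor endostatin, had 3.97 and 2.34 RPKM at 21 months and 4.01 and 2.25 RPKM at 13 months. Its sides differed by nearly the same ratio at both ages, 0.57 and 0.62, and it rose by 0.60 ± 0.17 (adjusted p = 0.017 in limma). After rescaling to the sum without mitochondrially encoded genes its adjusted p was 0.069. Col4a2, the partner of Col4a1 in the network, had 3.85 and 4.39 RPKM at 21 months and 5.88 and 3.50 RPKM at 13 months, ratios of -0.15 and 0.61. It was higher ipsilaterally at 13 months alone and did not pass the test (fitted change 0.23, adjusted p = 0.52 in limma).

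**Figure D3:**
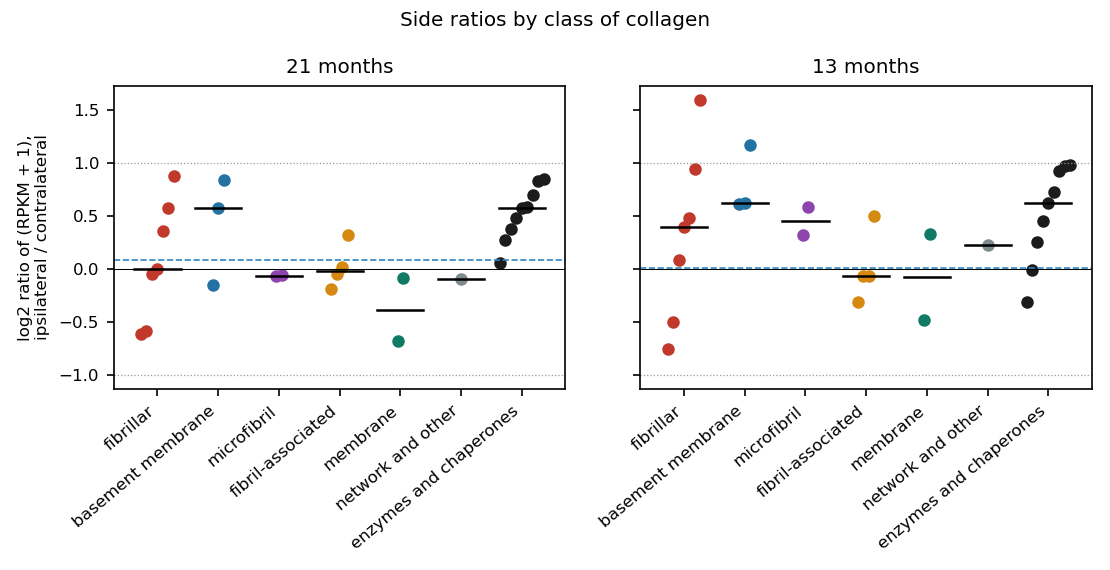
Log2 side ratios of RPKM + 1 for 28 members by class, at 21 months (left) and 13 months (right); each point is 1 gene, black bars are class medians, the dashed blue line is the median of all 12160 genes and dotted lines mark ratios of 1 and -1. Class medians are 0.57 and 0.62 for 3 basement membrane chains and 0.58 and 0.62 for enzymes and chaperones, and fibrillar chains spread from -0.61 to 0.87 at 21 months and from -0.76 to 1.60 at 13 months.

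Col4a1 and Col4a2 lie next to each other, head to head, so that the same stretch of DNA lies before both starts. It is shown because the transcripts of this pair did not move alike. The windows of 250 bases before each start in the RefSeq promoter table of build GRCr8 share the 76 bases at chr16:84885521-84885596, read here on the plus strand, the strand of Col4a1. Capitals mark the 1 match to the GC box (GGGCGG, searched on both strands).
Col4a1 and Col4a2: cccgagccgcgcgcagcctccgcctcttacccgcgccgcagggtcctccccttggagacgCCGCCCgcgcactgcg
The shared stretch holds no match to the CCAAT box CCAAT or to the TATA box TATAAA. The full windows of 250 bases of Col4a1 and Col4a2 hold 1 CCAAT match each, 1 and 2 GC boxes, and no TATAAA. Over coding genes, 40.3% of the windows of 250 bases hold the GC box, 35.5% CCAAT and 12.3% TATAAA.

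Ratios between chains within 1 library do not depend on the scaling of libraries. They do depend on how each gene was counted and on the gene length used. The ratio of Col4a1 to Col4a2, in RPKM, was 1.54 ipsilaterally and 0.65 contralaterally at 21 months, and 1.45 and 0.92 at 13 months. By listed RPKM, Col4a1 was thus above Col4a2 in both ipsilateral libraries and below it in both contralateral libraries. As background, the main type IV collagen molecule holds more alpha 1 than alpha 2 chains. Col3a1 and its neighbour Col5a2 showed the same pattern, with ratios of 1.44 and 0.63 at 21 months and 1.93 and 0.75 at 13 months. By contrast the neighbouring type VI genes had ratios of Col6a1 to Col6a2 of 1.79 and 1.76 at 21 months and 1.29 and 1.63 at 13 months. Col3a1 to Col1a1, the chains of fibrils that often hold both, ranged from 1.99 to 2.94.

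**Figure D4:**
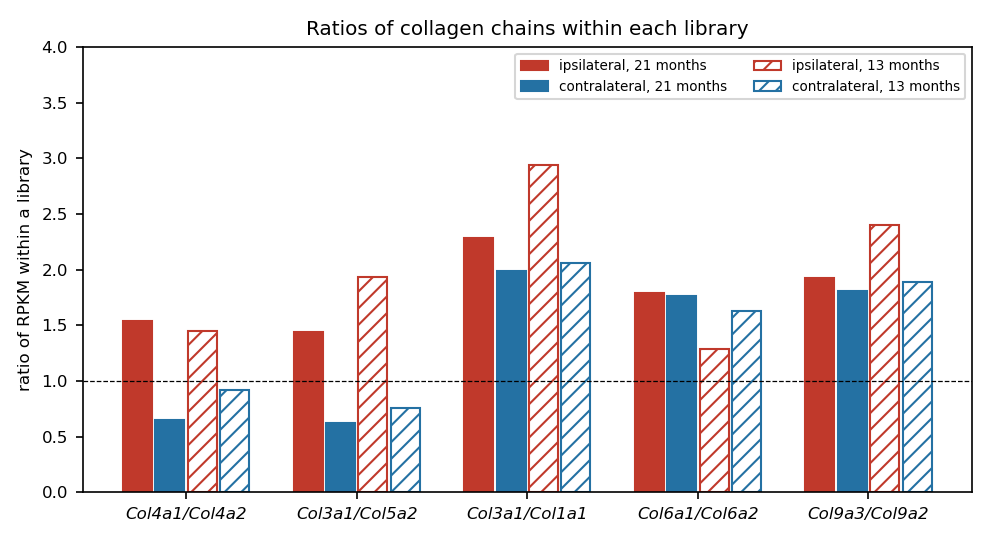
Ratio of the RPKM of 2 collagen chains within each library, for 5 pairs; red bars are ipsilateral and blue bars contralateral, filled at 21 months and hatched at 13 months, and the dashed line marks equal RPKM. Col4a1/Col4a2 (1.54 and 0.65 at 21 months, 1.45 and 0.92 at 13 months, ipsilateral first) and Col3a1/Col5a2 are above 1 ipsilaterally and below 1 contralaterally, and the other 3 pairs are above 1 in every library.

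Type VI chains, which form beaded microfibrils around cells and vessels, did not pass the test. Col6a2 had 4.02 and 4.26 RPKM at 21 months and 6.58 and 4.06 RPKM at 13 months, and Col6a1 had 7.19 and 7.51 RPKM and 8.48 and 6.61 RPKM, ipsilateral before contralateral. In both genes the ipsilateral library of 13 months was the highest, and for Col6a2 the other 3 were close to each other. Fibril-associated chains were near equal between the sides, with class medians of -0.01 at 21 months and -0.06 at 13 months over 4 genes. Col16a1 had the highest of these ratios, 0.32 and 0.50, and the cartilage chain Col9a2 had ratios of -0.05 and -0.31.

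Among transmembrane collagens Col25a1, a neuronal collagen found in amyloid plaques, fell. It had 2.46 and 4.55 RPKM at 21 months and 2.55 and 3.96 RPKM at 13 months, lower in both ipsilateral libraries, with a fitted change of -0.58 ± 0.17 (adjusted p = 0.022 in limma). The 10 neuron markers summed to 1468 RPKM ipsilaterally and 1777 RPKM contralaterally at 21 months, and to 1320.4 and 1824 RPKM at 13 months, with median ratios of -0.25 and -0.40; their part in the level of Col25a1 was not tested. Col13a1, of the same class, had ratios of -0.09 and 0.33. Col8a1, a short-chain collagen of vessel walls, had -0.10 and 0.23.

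The lysyl hydroxylases rose together. Plod2, which modifies the ends of the chains where cross-links form, had 3.15 and 1.55 RPKM at 21 months and 4.49 and 1.79 RPKM at 13 months, and rose by 0.84 ± 0.17 (adjusted p = 0.0011 in limma). Plod1, which modifies the helix, had 9.73 and 5.02 RPKM and 8.82 and 4.91 RPKM, and rose by 0.78 ± 0.17 (adjusted p = 0.0019 in limma). Plod3, which also attaches sugars to hydroxylysine, had 7.94 and 3.94 RPKM and 6.37 and 4.37 RPKM, and rose by 0.66 ± 0.17 (adjusted p = 0.011 in limma). All 3 were higher in each ipsilateral library than in each contralateral one. So were 7 of the 9 added genes and 6 of the 19 chains, against 34.4% of all genes, and 4 chains lay below in both, against 22.1%. The 7 include Loxl2, which passed the filter only through its ipsilateral values. The adjusted p of Plod3 was 0.066 after rescaling to the sum without mitochondrially encoded genes, which took 20.6% of the summed RPKM ipsilaterally and 24.1% contralaterally at 21 months, and 18.5% and 23.3% at 13 months.

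The bases before the starts of Plod1 and Plod2 are shown since these genes had the highest fitted changes of the hydroxylases. They are the 250 bases before each start in the RefSeq table of build GRCr8, chr5:163650738-163650987 on the minus strand for Plod1 and chr8:101964068-101964317 on the plus strand for Plod2. Capitals mark matches on either strand to the GC box GGGCGG, to CCAAT and to ACGTG, the core of the element bound by hypoxia-inducible factors.
Plod1: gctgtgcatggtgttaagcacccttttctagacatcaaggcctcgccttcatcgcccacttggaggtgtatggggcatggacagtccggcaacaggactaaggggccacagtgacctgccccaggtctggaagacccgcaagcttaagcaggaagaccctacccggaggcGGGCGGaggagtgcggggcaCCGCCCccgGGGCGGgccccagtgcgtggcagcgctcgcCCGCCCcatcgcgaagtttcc
Plod2: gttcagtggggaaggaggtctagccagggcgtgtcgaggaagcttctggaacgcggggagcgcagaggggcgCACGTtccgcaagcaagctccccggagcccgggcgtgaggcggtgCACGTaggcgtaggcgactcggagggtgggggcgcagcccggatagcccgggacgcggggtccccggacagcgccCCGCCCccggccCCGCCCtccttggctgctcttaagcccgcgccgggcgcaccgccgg
The Plod2 window holds 2 matches to ACGTG and 2 GC boxes, and the Plod1 window holds 4 GC boxes and no match to the hypoxia core. That core lies in 17.6% of the windows of coding genes and in 4 of the 39 member windows in the table, those of Plod2, P4ha2, Col4a5 and Col26a1. Of these 39 windows 23 hold the GC box, 59.0% against 40.3% over coding genes. The heat shock element GAANNTTC, where N is any base, was also searched and is not marked above. It lies in 5 of the 39 windows, 12.8% against 6.55% over coding genes, those of Plod1, Plod2, Serpinh1, Col26a1 and Col4a5. A match is a run of letters and not a shown binding site.

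The chaperone and the cross-linking enzymes differed among themselves. Serpinh1 (ENSRNOG00000016831, chromosome 1) had 26.85 and 17.52 RPKM at 21 months and 36.86 and 18.13 RPKM at 13 months, and rose by 0.79 ± 0.17 (adjusted p = 0.0024 in limma). Its contralateral values were close together and both ipsilateral values lay above them. Loxl2, a lysyl oxidase that acts on type IV collagen, had 1.12 and 0.52 RPKM and 2.08 and 0.62 RPKM, and rose by 0.70 ± 0.18 (adjusted p = 0.0068 in limma), with an adjusted p of 0.094 without the age term. It passed the filter only through its ipsilateral values, so this call supports nothing further. Loxl1, needed for elastic fibers, had ratios of 0.27 and 0.26 and did not pass the test.

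The prolyl hydroxylase alpha subunits P4ha1 and P4ha2 did not pass. P4ha1 had 41.58 and 31.86 RPKM at 21 months and 48.59 and 31.19 RPKM at 13 months, a fitted change of 0.50 ± 0.17 (adjusted p = 0.057 in limma). P4ha2 had a fitted change of 0.03, which was -0.03 with median-ratio scaling and -0.07 without mitochondrially encoded genes. Sparc had 465.17 and 310.84 RPKM at 21 months but 272.89 and 339.61 RPKM at 13 months, so the side ratios had opposite signs, 0.58 and -0.31. Its fitted change was 0.13 (adjusted p = 0.75 in limma).

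Other genes of collagen synthesis were taken from a list of 31, of which 29 were in the table and 23 had a mean of at least 1 RPKM. In limma 9 of the 23 rose and none fell, beside the 13.3% and 0.814% of all genes given above. The list also holds Ctsk, the gene of cathepsin K, a protease that breaks down collagen, and Ctsk was among the 9. It rose by 0.82, so the count does not stand for synthesis alone. The median ratio of the list was 0.46 at 21 months and 0.47 at 13 months, beside 0.09 and 0.01 over all genes. P4hb, the shared beta subunit of prolyl 4-hydroxylase and a general disulfide isomerase, had 171 and 65.7 RPKM at 21 months and 245 and 72.9 RPKM at 13 months, a fitted change of 1.55. Colgalt1, which adds galactose to hydroxylysine, rose by 0.96, and the lowest fitted changes of the list were those of Sec23a (-0.20) and Adamts3 (-0.21). Of 33 listed genes of partner matrix, 31 were present and 21 passed the filter, and 9 of the 21 rose while none fell, from Tgfbi (3.28) and Thbs1 (2.24) to Ctgf (-0.28) and Ogn (-0.35), which did not pass the test. Thbs1 and Tnc, both called, were under 1 RPKM on both contralateral sides and entered the test only through their ipsilateral values, so the count supports nothing further.

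Collagen receptors and inducing signals were taken from lists too. Of 4 receptor and uptake genes above the filter 2 rose and none fell, the mannose receptor gene Mrc1 by 2.13 and the integrin gene Itgb1 by 0.96, while Ddr1 (0.33) and Mrc2 (0.06) did not pass. Of 13 genes of TGF-beta and PDGF signalling, which are known to induce collagen genes, 3 rose and none fell, a share not far from the 13.3% of all genes that rose. They were Tgfb1 (1.69), Tgfbr1 (1.41) and Tgfbr2 (1.11), and the lowest were Smad7 (-0.04) and Tgfb2 (-0.20).

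Marker lists give the RNA level of genes typical of a cell type, and they cannot tell more cells from more RNA per cell. Their counts stand beside 13.3% of all genes that rose and 0.814% that fell. The 21 markers of fibroblasts and leptomeninges, 17 with a mean of at least 1 RPKM, summed to 169 RPKM ipsilaterally and 144 RPKM contralaterally at 21 months, and to 193 and 126 RPKM at 13 months. Of the 17 genes 3 rose and 1 fell, with Mgp (0.91) and Dcn (0.56) highest and Slc22a8 (-0.47) and Igf2 (-0.70) lowest, and the median ratios were 0.01 and 0.18. Omd of this list was at most at 0.01 RPKM, and Dcn, Ogn, Lum, Fmod and Fbln1 also stand in the list of partner matrix. The 12 markers of pericytes and smooth muscle summed to 210.4 and 114 RPKM at 21 months and to 204 and 106 RPKM at 13 months, and 1 of 10 rose, Tagln, by 2.06, with median ratios of 0.01 at 21 months and 0.17 at 13 months, Des (0.51) next and Acta2 (-0.03), Rgs5 (-0.11) and Myh11 (-0.48) not passing. Without Tagln the sums were 74.9 and 86.2 RPKM at 21 months and 89.5 and 75.0 RPKM at 13 months.

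Endothelial markers, 13 in the table, summed to 67.2 and 55.8 RPKM at 21 months and to 78.8 and 56.9 RPKM at 13 months, and 2 of 12 rose, Eng (1.11) and Tie1 (0.91), with Slco1a4 (-0.04) and Flt1 (-0.12) lowest. Microglia and macrophage markers summed to 405 and 57.6 RPKM at 21 months and to 556 and 74.7 RPKM at 13 months, and 11 of 11 rose, from Cx3cr1 (1.04) and Csf1r (1.52) to Cd68 (3.76) and Lgals3 (4.50), with Msr1 under 1 RPKM on both contralateral sides. Of 10 astrocyte markers 2 rose, Vim (2.24) and Gfap (1.61), while Aldoc (-0.18) and S100b (-0.24) were lowest, and their sums were 2923 and 1586 RPKM at 21 months and 2705 and 1764 RPKM at 13 months. Their median ratios were 0.12 and 0.02, and without Gfap and Vim the sums were 1233 and 1136 RPKM at 21 months and 984 and 1214 RPKM at 13 months. The 9 oligodendrocyte markers, from Cnp (0.27) and Olig1 (0.21) to Mbp (-0.15) and Mobp (-0.18), did not pass the test. Of 10 neuron markers 1 fell, Nefm (-0.81), while Tubb3 (-0.10), Syn1 (-0.24) and Nefl (-0.44) did not pass. The part of these cell types in the collagen differences was not tested.

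Markers of neighbouring structures also differed between the libraries. Choroid plexus markers, 8 in the table, summed to 1073 RPKM ipsilaterally and 1808 RPKM contralaterally at 21 months, and to 676 and 1229 RPKM at 13 months, and 5 of 8 fell, with Ttr (-0.81) and Clic6 (-0.79) lowest and Folr1 (-0.09) and Aqp1 (-0.09) not passing. Pineal and pituitary markers summed to 5.17 and 13.0 RPKM at 21 months and to 10.6 and 32.6 RPKM at 13 months, the contralateral library of 13 months being the highest. Tph1 had 0.13 and 0.44 RPKM at 21 months and 0.27 and 10.38 RPKM at 13 months, and Gngt1 and Pde6g were likewise high in that library alone, so fitted changes over both ages are not given for them. The pituitary gene Cga went another way, with 0.63 and 4.88 RPKM at 21 months and 5.37 and 1.48 RPKM at 13 months. Pomc had 3.25 and 5.47 RPKM and 3.44 and 2.73 RPKM in the same order. The part of these neighbouring structures in the collagen values was not tested.

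The ages were compared through the side ratios. Of 19 chains 16 had a lower side ratio at 21 months than at 13 months, a difference below 0 against 44.3% of all 12160 genes. Of all 40 chains, low ones included, 29 did, against 45.9% of all 17853 genes. The differences ran from -0.76 for Col4a2, -0.73 for Col3a1, -0.65 for Col6a2 and -0.53 for Col5a2 to 0.26 for Col9a2, with a median of -0.20 for the chains and 0.05 for all genes. No chain or added gene had a difference of at least 1, against 0.65% of all genes, or of -1 or less, against 0.757%. Of the 9 added genes 4 had a lower ratio at 21 months, with Loxl2 (-0.45) lowest and Sparc (0.89) highest. With single libraries these differences carry no test.

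On the ipsilateral side itself, 12 of 19 chains were lower at 21 months than at 13 months, against 45.8% of all genes. Col3a1 had 4.96 RPKM at 21 months and 9.22 RPKM at 13 months, a log2 age ratio of -0.78, and Col6a2 and Col4a2 had age ratios of -0.59 and -0.50. On the contralateral side 15 of 19 chains were higher at 21 months, against 40.8% of all genes, but the ratios were small, between -0.12 for Col4a1 and 0.26 for Col4a2. No member passed a log2 age ratio of 1 or -1 on either side. All genes did so in 0.321% upward and 0.658% downward on the ipsilateral side, and in 0.206% and 0.132% on the contralateral side. Sparc had an age ratio of 0.77 ipsilaterally and -0.13 contralaterally, and its ipsilateral value at 21 months was the highest of the 4 libraries.

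**Figure D5:**
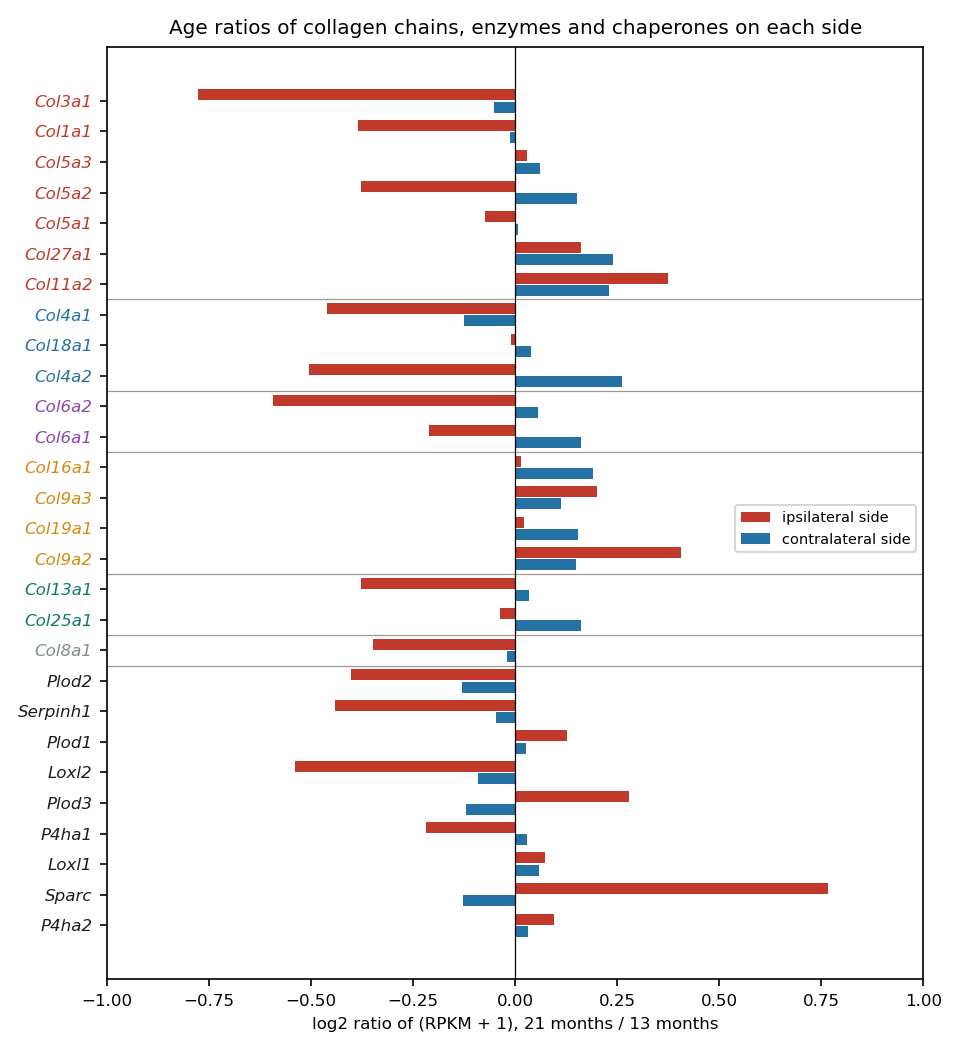
Log2 ratio of RPKM + 1 at 21 months to that at 13 months, for 28 members by class; red bars are the ipsilateral side and blue bars the contralateral side, 1 library per age and side. On the ipsilateral side bars run from -0.78 (Col3a1) to 0.77 (Sparc), whereas on the contralateral side they stay between -0.13 (Plod2) and 0.26 (Col4a2).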

How the data were processed

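The deposited values are RPKM made by the authors, rounded to 2 decimals, in 1 table of 17853 genes and 4 libraries. Tools named in the submitters' processing notes are TopHat2, cutadapt and edgeR, with neither version nor role, and the build named is GRCh38, a human one, while gene identifiers are rat Ensembl ones. How reads were counted and which gene lengths were used is not stated. Columns were matched to samples by age and side code of the titles, L for ipsilateral and R for contralateral.

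Analysis used log2(RPKM + 1) of the 12160 genes whose mean reached 1 RPKM. Side and age ratios compare single libraries, with no test. limma 3.58.1 in R 4.3.3 (eBayes, two-sided, Benjamini-Hochberg over all 12160 genes, threshold 0.05) modelled side plus age. It was tested on simulated data. Members were classed by collagen type. Members and lists were chosen with earlier results of these data known. Members named are those past a threshold, called, pairing with such a gene, highest or extreme in their class. Lists give their 2 highest and 2 lowest genes, except the list of pineal and pituitary markers. In that list 1 library decides Tph1, Gngt1 and Pde6g, and Cga had side ratios of opposite sign at the 2 ages. Other genes named were picked out after their values were seen. Of 200 list entries 190 were matched by symbol. Of 51 members 39 had a window in the RefSeq promoter table. Alternatives were a pseudocount of 0.1, no filter, a minimum mean of 5 RPKM, scaling by median ratios, rescaling without mitochondrially encoded genes, a threshold of 0.5, no age term and a mean-variance trend. Whether libraries of both sides share rats is not stated, so p-values measure only the spread between these libraries.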

Additional observations from a re-analysis of the deposited data

Results flagged for a closer look

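Sparc, which encodes the collagen-binding protein osteonectin, had side ratios of opposite sign at the 2 ages, 0.5801 at 21 months and -0.3145 at 13 months. Among the 28 members compared it was the 1 gene whose ratios lay at least 0.25 from 0 in opposite directions. The difference between the ages was not tested, since each value is 1 library against another.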

How the results depend on the processing

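Pairing by rat was not possible because the labels carry no replicate numbers. Age, the 1 shared factor, is already a term of the fit, which therefore compares the sides within each age. Leaving out a library leaves that fit no residual degrees of freedom, and the ratio of each age is the value without the other age. No called gene changed sign. Median-ratio scaling, rescaling without mitochondrially encoded genes and a mean-variance trend moved no count of members by over 1.5 times and no class median by 0.25, but median-ratio scaling gave 248 genes that fell, against 99, and no age term gave 27. With a pseudocount of 0.1 RPKM, 2 chains at 21 months and 3 added genes at 13 months had side ratios of at least 1. Without the filter limma called 0 of 17853 genes (0 chains rose, 0 fell and 0 added genes rose), although 2641 genes on the higher and 719 on the lower side had an unadjusted p under 0.05. Adding a mean-variance trend to that fit, chosen after seeing the data, gave 723 called genes and 0 members. Also without the filter, 29 of 40 chains had a difference between the ages below 0, and median side ratios were 0.00 for fibrillar chains at 13 months, 0.00387 for basement membrane chains at 21 months, 0.00664 for microfibril chains at 13 months and -0.0727 for membrane chains at 21 months; those of fibril-associated (0.02) and membrane chains (0.03) at 13 months changed sign. With a minimum mean of 5 RPKM, which kept 5 chains, 1 chain had a side ratio of at least 1 at 13 months and 3 had a lower ratio at 21 months. The only fibrillar chain kept was then Col11a2, with ratios of -0.61 and -0.76 at 21 and 13 months. The only basement membrane chain kept was Col4a1, with 0.84 and 1.18. The sign change of the fibrillar median at 13 months thus rests on 1 gene and does not describe the class. For the fibril-associated chains kept, Col9a3 and Col16a1, the medians also changed sign. They were 0.17 at 21 months, against -0.01, and 0.22 at 13 months, against -0.06. There limma called 881 genes, of which 1 chain rose, 1 chain fell and 3 added genes rose. A threshold of 0.5 gave 4 chains higher, 3 lower and 5 added genes higher at 21 months, and 6, 2 and 5 at 13 months. At that threshold 3 chains and 1 added gene were lower and 1 added gene higher at 21 months on the ipsilateral side, and the difference between the ages was lower for 4 chains and higher for 1 added gene. Without the age term 1 chain fell, against 3 with it. Depth is unknown, so the precision of low values cannot be given.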
